A study of Mus musculus with 4 samples.

Results

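The genes described here are 59 genes of the cell cycle and of DNA replication: 26 that license, copy or ligate DNA in S phase or supply its building blocks, 7 that govern entry into S phase (G1/S regulators), and 26 that act in mitosis. They were listed by name from their known functions. Each was read from 1 probe set, the one with the highest mean over the 4 deposited columns among the probe sets annotated with that gene alone. In all 58 of the 59 could be read, of 18193 genes on the array with such a probe set. No probe set was listed under the symbol of Ccnb1 (cyclin B1) alone, and this member was not analysed here.

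The values come from 4 Affymetrix mouse 430 2.0 arrays, 1 for each sorted population of CD4+ CD8- thymocytes from female mice aged 6 to 8 weeks. The Foxp3-null cells were GFP+ cells of Foxp3(gfpko/wt) females, which carry a GFP-marked knockout allele beside a wild-type one, so that the same animals also hold cells using the wild-type allele. The Foxp3-fusion cells were GFP+ cells of Foxp3(gfp/gfp) females, in which the regulatory T cell transcription factor Foxp3 is made as a fusion with GFP from the knocked-in locus. The GFP- CD25+ and the GFP- CD25- cells came from the same Foxp3(gfp/gfp) genotype, lacked the fusion protein's fluorescence and were split by CD25, the alpha chain of the interleukin-2 receptor. Whether GFP+ cells were also gated on CD25 is not stated in their titles. The Foxp3(gfpko/wt) strain had been backcrossed for 2 generations and the Foxp3(gfp/gfp) strain for 4 to 6 generations, so strain background and genotype cannot be told apart. The description of the Foxp3-null sample repeats that of the fusion mice, and its group rests on its title and strain entry. With 1 array per group no difference below has a replicate check or a test, and the values describe these 4 arrays.

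A dividing cell first licenses its origins by loading the MCM helicase, then opens them and copies the DNA with polymerases held by the PCNA sliding clamp, and finally condenses and separates the chromosomes on the mitotic spindle. Replication genes are classically switched on by E2F factors when cyclin-dependent kinases relieve them of the retinoblastoma family at G1/S. Mitotic genes are transcribed later, from promoters that typically join CCAAT boxes bound by NF-Y with a cell cycle homology region (CHR) read by the DREAM and B-Myb complexes. In the thymus, much of the division takes place before the CD4+ CD8- stage, and mature CD4 thymocytes are largely quiescent. Regulatory T cells and their precursors receive interleukin-2 and strong receptor signals during this stage.

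The promoters show how the replication and mitotic members differ in sequence. RefSeq promoter windows on GRCm38.p6, from 250 bases before to 50 bases after the annotated start, were matched by symbol for 49 members, which had 56 windows, and windows of 1 gene can overlap. On both strands the windows were searched for the E2F letters TTTCCCGC, TTTGGCGC and TTTCGCGC, the CHR letters TTTGAA and the NF-Y letters CCAAT. The 5 windows printed here belong to members whose Foxp3-null signal was 2-fold or more above that of GFP- CD25- cells, and each motif match stands in capitals. Those of Mcm5 (chr8:75109259-75109558, plus strand) and Mcm6 (chr1:128359656-128359955, minus strand) stand for the replication genes. Those of Cdca8 (chr4:124936868-124937167, minus strand), Mki67 (chr7:135716330-135716629, minus strand) and Top2a (chr11:99024140-99024439, minus strand) stand for the mitotic genes. They were chosen because they hold matches: Pcna, Rrm1, Rrm2, Prim1 and Mcm10, also 2-fold higher in that comparison, had no E2F match, and Birc5 and Plk4 had no CHR.
Mcm5: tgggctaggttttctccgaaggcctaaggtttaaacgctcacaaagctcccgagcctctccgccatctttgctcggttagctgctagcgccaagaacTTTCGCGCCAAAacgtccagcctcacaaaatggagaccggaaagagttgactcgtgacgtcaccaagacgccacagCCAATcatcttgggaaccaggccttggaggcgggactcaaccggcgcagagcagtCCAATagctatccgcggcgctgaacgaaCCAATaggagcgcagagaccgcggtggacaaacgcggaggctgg
Mcm6: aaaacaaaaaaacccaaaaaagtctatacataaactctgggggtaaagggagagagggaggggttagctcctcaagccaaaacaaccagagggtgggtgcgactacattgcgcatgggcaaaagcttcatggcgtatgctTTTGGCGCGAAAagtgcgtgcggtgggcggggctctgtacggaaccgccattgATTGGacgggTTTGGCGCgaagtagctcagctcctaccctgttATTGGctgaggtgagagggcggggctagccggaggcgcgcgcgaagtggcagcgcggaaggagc
Cdca8: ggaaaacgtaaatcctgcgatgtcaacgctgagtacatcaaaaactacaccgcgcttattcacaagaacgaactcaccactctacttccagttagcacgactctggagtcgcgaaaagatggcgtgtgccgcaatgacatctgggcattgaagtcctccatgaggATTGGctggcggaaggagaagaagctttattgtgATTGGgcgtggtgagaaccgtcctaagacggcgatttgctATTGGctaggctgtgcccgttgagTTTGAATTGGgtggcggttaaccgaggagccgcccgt
Mki67: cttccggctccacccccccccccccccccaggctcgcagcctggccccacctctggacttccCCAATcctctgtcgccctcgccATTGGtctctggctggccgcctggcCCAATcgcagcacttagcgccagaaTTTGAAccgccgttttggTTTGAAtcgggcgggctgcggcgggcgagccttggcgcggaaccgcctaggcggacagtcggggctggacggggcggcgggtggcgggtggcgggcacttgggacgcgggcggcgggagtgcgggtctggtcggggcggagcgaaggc
Top2a: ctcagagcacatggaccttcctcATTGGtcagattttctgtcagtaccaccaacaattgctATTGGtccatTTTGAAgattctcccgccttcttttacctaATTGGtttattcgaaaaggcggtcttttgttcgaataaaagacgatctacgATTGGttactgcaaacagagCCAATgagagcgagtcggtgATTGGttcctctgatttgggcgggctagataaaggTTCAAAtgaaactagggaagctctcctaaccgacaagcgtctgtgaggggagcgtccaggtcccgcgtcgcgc

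Counted from 1 at the 5′ end of each window, the capitals of Mcm5 at positions 98 and 102 are overlapping E2F matches on opposite strands, and those of Mcm6 at positions 141 and 145 likewise, with another at position 204. In Cdca8 the CHR at position 264 shares its last base with an NF-Y match at position 269. Mki67 had CHR matches at positions 135 and 153, downstream of 3 NF-Y matches. Top2a had 6 NF-Y matches and CHR matches at positions 72 and 228.

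Across the replication members, 10 of 27 windows (37.0%) held an E2F match, against 606 of all 32851 windows (1.84%). The genes were Cdc6, Cdt1, Lig1, Mcm3, Mcm5, Mcm6, Mcm7, Pola1, Rfc3 and Uhrf1. Among the mitotic members only the Cdk1 window of 23 held one (4.35%), whereas 16 of 23 (69.6%) held a CHR, against 17.9% of all windows. In the replication members a CHR was found in 3 of 27 windows (11.1%). NF-Y letters stood in 19 of 23 mitotic windows (82.6%) and 16 of 27 replication windows (59.3%), against 37.4% of all windows. CHR and NF-Y occurred together in 69.6% of the mitotic and 7.41% of the replication windows, against 6.95% of all. Of the 6 windows of the G1/S regulators, that of Cdk2 held an E2F match, 3 held NF-Y letters and none held a CHR. A match of letters is a description and not a binding site.

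**Figure D1:**
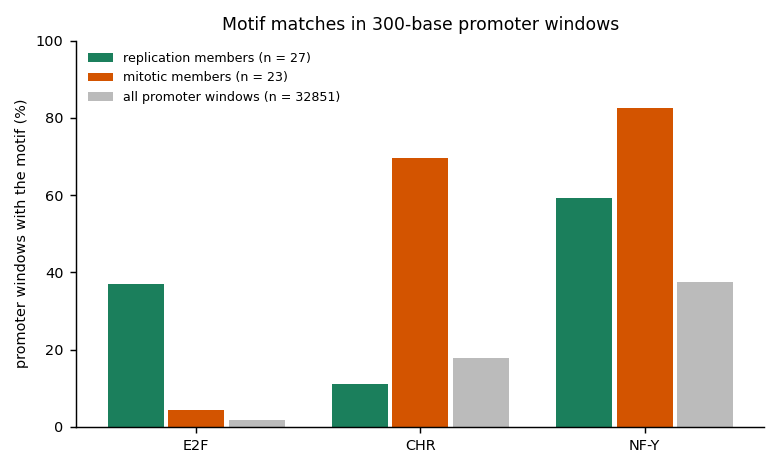
Share of 300-base RefSeq promoter windows (y axis, percent) that hold the E2F, CHR or NF-Y letters on either strand (x axis), for the windows of replication members, of mitotic members and of all genes. E2F letters stood in 37.0% of replication windows and CHR letters in 69.6% of mitotic windows, against 1.84% and 17.9% of all windows.

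Signals are given as log2 values after quantile normalization, a scaling that gives every array the same distribution of signals. Values at or under 3.80 log2, the level of genes of silent tissues, count as at the floor. Of the 58 measured members, 38 lay above the floor on all 4 arrays, 6 on some and 14 on none. Of the replication members 17 of 26 were above it on all 4 arrays, of the G1/S regulators 6 of 7, and of the mitotic members 15 of 25. Among the mitotic genes below the floor on every array were Cdk1, the mitotic kinase, the checkpoint kinases Bub1, Bub1b and Ttk, and the spindle kinases Aurka and Plk1. Cdca3, Kif20a and Nusap1, which act in mitotic entry, cytokinesis and spindle assembly, were there too. The replication genes below the floor were Cdc45 and Gins2 of the active helicase, the polymerase subunits Pola1 and Pole, and Tk1, the thymidine kinase. The 6 members above the floor on only some arrays (Cdc6, Rfc5, Uhrf1, Tyms, Cdk2 and Ccnb2) entered through the arrays where they were high.

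The arrays differed in ways that touch these values. Between 8490 and 8699 genes lay above the floor per array. The gap between 3′ and 5′ probe sets of beta-actin, a measure of RNA shortening, was 6.99 log2 in Foxp3-null, 5.22 in Foxp3-fusion, 9.27 in GFP- CD25+ and 8.39 in GFP- CD25- cells. All 9 measured markers of CD4 thymocytes were above the floor on all 4 arrays, with a summed level between 12.22 and 12.71 log2, whereas all 4 measured erythroid genes were below it everywhere. Of 5 B cell markers 2 were above the floor on any array, Ms4a1 among them, and Cd79a, Pax5 and Blnk on none. Their summed level was 6.19 log2 in Foxp3-null, 5.50 in Foxp3-fusion, 5.66 in GFP- CD25+ and 5.37 in GFP- CD25- cells. Of 10 dendritic cell and macrophage genes 4 were above the floor on any array, Csf1r among them, with Itgax, Cd68 and Lyz2 below it. Their summed level was 7.82 log2 in Foxp3-null, 6.95 in Foxp3-fusion, 7.62 in GFP- CD25+ and 7.56 in GFP- CD25- cells, so Foxp3-null cells were highest for both lists. Of 5 gamma delta and NK genes 3 were above the floor on any array. Summed, they read 6.70 log2 in Foxp3-null, 6.41 in Foxp3-fusion, 5.15 in GFP- CD25+ and 7.67 in GFP- CD25- cells. Of 7 thymic epithelial genes 2, Krt5 and Epcam, were above it. This list too was highest in Foxp3-null cells. It summed to 7.69 log2 there, 7.11 in Foxp3-fusion, 7.54 in GFP- CD25+ and 7.35 in GFP- CD25- cells.

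Among the licensing genes, the 6 subunits of the MCM2-7 helicase followed different patterns. Mcm5 had a log2 signal of 11.12 in Foxp3-null, 9.90 in Foxp3-fusion, 10.14 in GFP- CD25+ and 9.52 in GFP- CD25- cells. On this probe set the null array alone stood apart. A weaker Mcm5 set was highest in Foxp3-fusion cells, at 4.63. It had 4.20 in Foxp3-null and 4.24 in GFP- CD25+ cells and was at the floor in GFP- CD25- cells. Mcm3 had 8.31 in Foxp3-null and 8.24 in Foxp3-fusion cells, against 7.02 in GFP- CD25+ and 6.92 in GFP- CD25- cells, and both GFP+ arrays were above both GFP- arrays. Mcm6 had 9.70 in Foxp3-null and 9.69 in Foxp3-fusion cells, with 9.48 in GFP- CD25+ and 8.53 in GFP- CD25- cells, the last of which was low. Mcm2 was highest in GFP- CD25+ cells at 8.00, against 6.97 in GFP- CD25- cells, and had 6.73 on each GFP+ array. Mcm4 was lowest in Foxp3-null cells at 10.01, with 10.38 in Foxp3-fusion, 10.75 in GFP- CD25+ and 10.74 in GFP- CD25- cells, and Mcm7 stayed between 10.17 and 10.68. Of the loading factors, Cdt1 had 9.10 in Foxp3-null, 7.78 in Foxp3-fusion, 8.40 in GFP- CD25+ and 8.14 in GFP- CD25- cells. Cdc6 was above the floor in Foxp3-null cells alone, at 4.46. Mcm10, which joins licensing to synthesis, had 5.94 in Foxp3-null, 4.33 in Foxp3-fusion, 4.88 in GFP- CD25+ and 4.54 in GFP- CD25- cells. Gins1, a helicase cofactor, was ordered in the same way, with 5.10 in Foxp3-null, 3.87 in Foxp3-fusion, 4.50 in GFP- CD25+ and 4.22 in GFP- CD25- cells.

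Among the genes of the replication fork, Pcna, the sliding clamp, separated GFP+ from GFP- cells. Its log2 signal was 9.26 in Foxp3-null and 8.50 in Foxp3-fusion cells, against 7.29 in GFP- CD25+ and 7.40 in GFP- CD25- cells. Prim1, the primase subunit that starts each strand, was lowest in Foxp3-fusion cells, with 10.07 in Foxp3-null, 8.26 in Foxp3-fusion, 9.91 in GFP- CD25+ and 8.99 in GFP- CD25- cells. Fen1, the flap endonuclease that trims Okazaki fragments, had 11.25 in Foxp3-null, 10.06 in Foxp3-fusion, 11.11 in GFP- CD25+ and 10.48 in GFP- CD25- cells. Lig1, the ligase that seals those fragments, stood out in Foxp3-null cells at 5.26, with 4.25 in Foxp3-fusion, 4.11 in GFP- CD25+ and 4.06 in GFP- CD25- cells. The clamp loader subunits did not move together. Rfc4 had 8.49 in Foxp3-null, 7.87 in Foxp3-fusion, 8.87 in GFP- CD25+ and 7.60 in GFP- CD25- cells. On the probe set used, Rfc3 lay between 5.85 and 6.41 on the 4 arrays. Its other probe set was above the floor in Foxp3-fusion cells alone, at 4.97. Rfc5 was at the floor only in GFP- CD25- cells. Uhrf1, which guides the maintenance of DNA methylation at the fork, was above the floor only in GFP- CD25+ cells, at 5.12.

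Both subunits of ribonucleotide reductase, which makes deoxynucleotides, were highest in Foxp3-null cells but differed on the Foxp3-fusion array. Rrm1, the large subunit, had 7.92 in Foxp3-null and 7.31 in Foxp3-fusion cells, against 6.26 in GFP- CD25+ and 6.02 in GFP- CD25- cells. Rrm2, the small subunit, had 9.97 in Foxp3-null, 8.19 in Foxp3-fusion, 9.57 in GFP- CD25+ and 8.93 in GFP- CD25- cells, which placed the fusion array lowest. Tyms, the thymidylate synthase, stayed between 3.55 and 4.13, next to the floor.

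Of the G1/S regulators, the genes around E2F and cyclin E were highest in Foxp3-null cells. Tcf19, a gene expressed at the G1/S boundary, had 7.58 in Foxp3-null, 5.05 in Foxp3-fusion, 6.06 in GFP- CD25+ and 6.33 in GFP- CD25- cells. Ccne1 (cyclin E1), which drives S phase entry with Cdk2, had 8.06 in Foxp3-null, 6.07 in Foxp3-fusion, 6.80 in GFP- CD25+ and 6.03 in GFP- CD25- cells. E2f1, the activating transcription factor, had 5.74 in Foxp3-null, 4.58 in Foxp3-fusion, 4.82 in GFP- CD25+ and 4.80 in GFP- CD25- cells. Other members took other orders. On the probe set used, Cdk2 itself was at the floor in Foxp3-null cells, with 4.90 in Foxp3-fusion, 5.06 in GFP- CD25+ and 5.0 in GFP- CD25- cells. Its other probe set ran the opposite way, with 3.90 in Foxp3-null cells, just above the floor, and 3.24 to 3.34 on the other arrays. Ccnd3 (cyclin D3), the D-type cyclin on which thymocyte proliferation depends, had 8.98 in Foxp3-null, 8.43 in Foxp3-fusion and 8.76 in GFP- CD25+ cells, against 10.10 in GFP- CD25- cells. Ccnd2 stayed between 10.32 and 11.27 and Ccne2 between 4.36 and 4.51.

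Of the mitotic members, Mki67, the proliferation antigen that coats mitotic chromosomes, had 10.61 in Foxp3-null, 9.12 in Foxp3-fusion, 9.62 in GFP- CD25+ and 8.48 in GFP- CD25- cells. Top2a, the topoisomerase that untangles sister chromatids, had 8.17 in Foxp3-null cells, against 6.28 in Foxp3-fusion, 6.53 in GFP- CD25+ and 6.24 in GFP- CD25- cells, so the null array alone was high. Cdca8 (Borealin), a subunit of the chromosomal passenger complex, had 8.40 in Foxp3-null, 7.07 in Foxp3-fusion, 7.58 in GFP- CD25+ and 6.61 in GFP- CD25- cells. Its partner Birc5 (Survivin) was also highest in Foxp3-null cells, with 6.04 there, 4.92 in Foxp3-fusion, 5.22 in GFP- CD25+ and 4.92 in GFP- CD25- cells. The complex's kinase, Aurkb, stayed between 4.02 and 4.16. Tpx2, a spindle assembly factor, had 6.95 in Foxp3-null, 4.94 in Foxp3-fusion, 5.97 in GFP- CD25+ and 5.79 in GFP- CD25- cells, with the 2 GFP+ arrays at opposite ends. Kif11, the motor that pushes the spindle poles apart, had 5.69 in Foxp3-null, 4.53 in Foxp3-fusion, 4.96 in GFP- CD25+ and 4.94 in GFP- CD25- cells. Plk4, the kinase of centriole duplication, was high on both GFP+ arrays, at 7.61 in Foxp3-null and 7.33 in Foxp3-fusion cells, against 6.71 in GFP- CD25+ and 5.85 in GFP- CD25- cells. The checkpoint gene Bub3 was low in Foxp3-null cells at 8.74, with 9.55 in Foxp3-fusion, 9.65 in GFP- CD25+ and 9.66 in GFP- CD25- cells. Ccnb2 (cyclin B2) was above the floor only in Foxp3-fusion cells, at 4.33, and Ccna2 (cyclin A2) stayed between 5.28 and 5.72. Of the rest, Cenpa, the centromeric histone, lay between 3.92 in GFP- CD25+ and 5.33 in Foxp3-fusion cells, and Cenpe, a kinetochore motor, between 4.81 and 5.71. Cdc20, Mad2l1 and Kif23, which act in the spindle checkpoint and in cytokinesis, spanned less than 1 log2 unit over the 4 arrays.

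**Figure D2:**
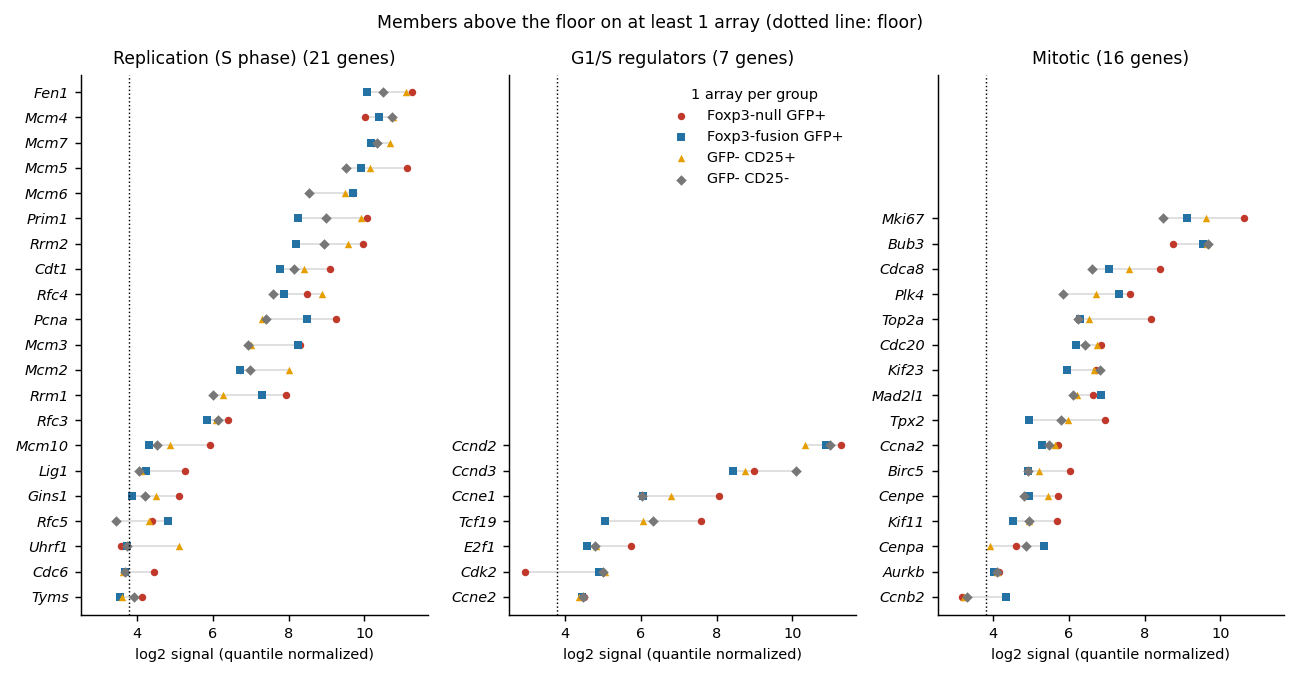
Log2 signal (x axis, quantile normalized) of the 44 members above the floor on at least 1 array, 1 row per gene, in panels for replication genes, G1/S regulators and mitotic genes. Each point is 1 array of 1 group, and the dotted line marks the floor of 3.80. The Foxp3-null point is the rightmost for 31 of the 44 genes.

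Foxp3-null cells gave the highest of the 4 signals for 31 of these 44 members (70.5%), against 39.1% of the 9394 genes above the floor on at least 1 array. Foxp3-fusion cells were highest for 4 members (9.09%), against 25.5% of those genes. GFP- CD25+ cells were highest for 6 members (13.6%), against 20.5%, and GFP- CD25- cells for 3 (6.82%), against 14.8%. With the values as deposited, Foxp3-null cells were highest for 22 of 44 members, against 24.9% of the genes, and Foxp3-fusion cells for 11 (25.0%), against 41.5%. Both the members and the genes at large therefore moved with the scaling, and the members' share stayed above that of the genes for the null array and below it for the fusion array.

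Foxp3-null cells were set against GFP- CD25- cells to ask what GFP+ precursors without Foxp3 protein share with, or add to, conventional thymocytes. Of 42 members with a difference, 17 were higher and 2 lower in Foxp3-null cells by 2-fold or more, against 10.2% and 7.11% of 9021 genes. The replication members had 9 of 20 higher and none lower, with a median log2 difference of 0.93, and the mitotic members 6 of 15 higher and none lower, with a median of 0.74. The median over all genes was 0.18. The differences were largest for Mki67 (4.38-fold), Ccne1 (4.06-fold), Top2a (3.81-fold), Rrm1 (3.72-fold) and Pcna (3.62-fold). Plk4 was 3.39-fold, Cdca8 3.47-fold, Mcm5 3.04-fold, Mcm10 2.64-fold and Mcm3 2.62-fold higher. The members lower in Foxp3-null cells were both G1/S regulators, Ccnd3 (2.17-fold) and Cdk2 (at least 2.29-fold), and for each another probe set differed in the opposite direction. The G1/S regulators had 2 of 7 higher, 2 of 7 lower and a median of 0.29.

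With the values as deposited, in which the median of all genes was 0.00 for this comparison, 11 members were higher and 4 lower by 2-fold or more, against 5.52% and 10.8% of the genes. Of all genes 2-fold apart, 59% were higher in Foxp3-null cells after quantile normalization and 33.7% as deposited, so the direction of the genes at large turned with the scale. The medians of the members kept theirs, at 0.65 for replication and 0.57 for mitotic genes. The 11 members higher on both scales were Mcm3, Mcm5, Mcm10, Pcna, Lig1, Rrm1, Ccne1, Plk4, Cdca8, Mki67 and Top2a. The actin gap was smaller in Foxp3-null than in GFP- CD25- cells, and its part in these differences was not tested. More cycling cells and more of each RNA per cell cannot be told apart in RNA of a whole population.

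The Foxp3-null and Foxp3-fusion arrays compare GFP+ cells without and with Foxp3 protein. Of 43 members, 17 were higher and 1 lower in Foxp3-null cells by 2-fold or more, against 9.44% and 9.12% of 9195 genes. Replication members had 8 of 20 higher and none lower (median 0.64), mitotic members 6 of 16 higher and none lower (median 0.72), and G1/S regulators 3 of 7 higher and 1 lower (median 0.55). All genes had a median of 0.13. Tcf19 was 5.79-fold, Tpx2 4.04-fold, Ccne1 3.97-fold, Top2a 3.69-fold, Prim1 3.50-fold and Rrm2 3.42-fold higher in Foxp3-null cells. Mcm10 was 3.05-fold, Mki67 2.81-fold, Cdca8 2.52-fold and Cdt1 2.50-fold higher, whereas Cdk2 was lower, by at least 2.15-fold, on 1 of its conflicting probe sets. Markers of other cells were higher in Foxp3-null cells too. Of the 4 dendritic cell and macrophage genes with a difference, 3 were 2-fold or more higher (median 1.20), Csf1r by 3.23-fold, and the B cell marker Ms4a1 had 5.63 in Foxp3-null cells, against 3.92 in Foxp3-fusion cells. Their part in the cell cycle differences was not tested.

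This comparison depended on the scale. As deposited, 8 members were higher and 2 lower by 2-fold or more, against 4.66% and 18.6% of the genes, and the share of higher among all genes 2-fold apart was 20.1% as deposited and 50.8% after quantile normalization. The medians were 0.21 for replication and 0.26 for mitotic genes on that scale, where all genes had a median of -0.17. The 8 members higher on both scales were Mcm10, Gins1, Prim1, Rrm2, Tcf19, Ccne1, Tpx2 and Top2a. Bub3 was 2.65-fold lower in Foxp3-null cells as deposited and 1.75-fold lower after quantile normalization. In 8 members the difference changed sign between the scales, none of them among those 2-fold apart.

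**Figure D3:**
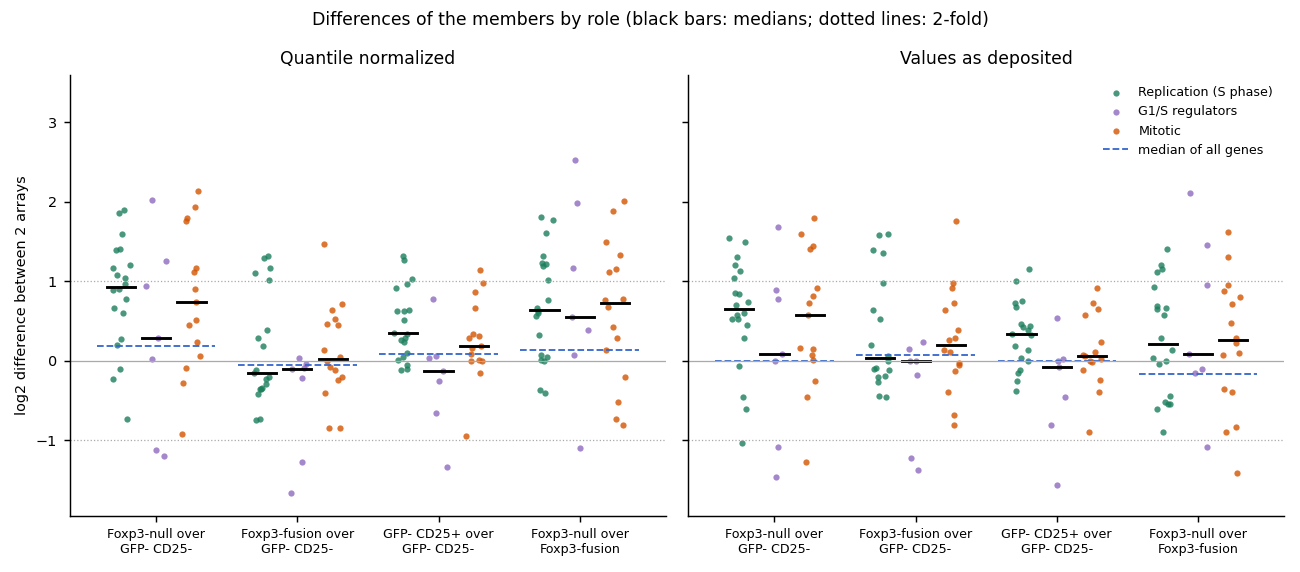
Log2 difference between 2 arrays (y axis) for each member with a value, in 4 comparisons (x axis), after quantile normalization (left) and as deposited (right), with replication genes, G1/S regulators and mitotic genes in separate columns. Black bars are medians, dashed lines the median of all genes and dotted lines 2-fold; the replication median was 0.93 for Foxp3-null over GFP- CD25- and -0.16 for Foxp3-fusion over GFP- CD25- cells.

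In Foxp3-fusion cells, set against GFP- CD25- cells, fewer members differed and the medians lay near 0. Of 42 members, 6 were higher and 2 lower by 2-fold or more, against 9.52% and 4.96% of 8832 genes. The higher members were Plk4 (2.77-fold), Mcm3 (2.50-fold), Rrm1 (2.45-fold), Mcm6 (2.24-fold), Pcna (2.14-fold) and Rfc5 (at least 2.01-fold). The lower members were Ccnd3 (3.17-fold) and Tcf19 (2.43-fold). The replication median was -0.16 (5 of 19 higher), the mitotic median 0.03 (1 of 16 higher) and the G1/S median -0.10 (2 of 7 lower), against -0.05 for all genes. As deposited, the replication genes had a median of 0.03 with 4 of 18 higher, the mitotic genes 0.20 with 1 of 16 higher, and all genes 0.07, and 14.1% of genes were 2-fold higher and 3.51% lower. Of all genes 2-fold apart, 65.8% were higher after quantile normalization and 80.1% as deposited.

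Set side by side, these comparisons, which share the GFP- CD25- array, split the members that were 2-fold higher in Foxp3-null cells. The 5 members Mcm3, Mcm6, Pcna, Rrm1 and Plk4 were higher on both GFP+ arrays by 2-fold or more, as were 3.39% of 9021 genes. The other 12 reached 2-fold on the Foxp3-null array only, against 6.84% of the genes. After quantile normalization the same 12 also reached it over Foxp3-fusion cells, against 4.78% of the 9021 genes. Of the 617 genes at 2-fold on the Foxp3-null array only, 431 did so too. Much of this overlap is therefore built into the selection, which left out genes 2-fold higher in Foxp3-fusion cells. The 12 were Mcm5, Mcm10, Lig1, Prim1 and Rrm2 of the replication genes, Tcf19 and Ccne1 of the G1/S regulators, and Birc5, Cdca8, Tpx2, Mki67 and Top2a of the mitotic genes. Mcm6 differed by 1.01-fold and Mcm3 by 1.05-fold between the GFP+ arrays, whereas Pcna was 1.69-fold, Rrm1 1.52-fold and Plk4 1.22-fold higher in Foxp3-null cells. As deposited, 4 members were shared, without Mcm6, against 2.52% of the genes. On that scale 7 reached 2-fold on the Foxp3-null array only, as did 267 of 8889 genes. Of these members 3 of the 7, Mcm10, Ccne1 and Top2a, also did so over Foxp3-fusion cells, against 2.23% of the 8889 genes. Among the 267 genes 198 did, a larger share than the 3 of 7 members. In the promoter windows of the 5 shared members, E2F letters stood in those of Mcm3 and Mcm6 and no window held a CHR. In the windows of the 12, of which 11 had one, E2F letters stood in Mcm5 and Lig1, and CHR letters in Cdca8, Mki67 and Top2a. NF-Y letters stood in 4 of the 5 and in 8 of the 11. Of all windows 1.84% held E2F, 17.9% CHR and 37.4% NF-Y letters. The shared members other than Plk4 are replication genes, of whose windows 11.1% held a CHR, so the sets also differ in role.

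GFP- CD25+ cells, which hold the interleukin-2 receptor alpha chain but no Foxp3 fluorescence, had few members 2-fold apart from GFP- CD25- cells. Of 42 members, 4 were higher and 1 lower by 2-fold or more, against 3.86% and 4.38% of 8784 genes. Uhrf1 was at least 2.49-fold, Rfc4 2.41-fold, Mki67 2.21-fold and Mcm2 2.05-fold higher in GFP- CD25+ cells, and Ccnd3 was 2.52-fold lower. The medians were 0.34 for replication genes (3 of 20 higher), 0.18 for mitotic genes (1 of 15 higher) and -0.13 for G1/S regulators, against 0.08 for all genes. As deposited, 1 of 19 replication genes and none of the mitotic genes were 2-fold higher, against 2.70% of genes higher and 6.81% lower, and of all genes 2-fold apart 28.4% were higher, against 46.8% after quantile normalization. Uhrf1 alone stayed 2-fold higher on both scales. It was above the floor only in GFP- CD25+ cells, so it entered through that array and its difference is a bound. Its other probe set was below the floor on every array. Of 8 immature thymocyte markers with a difference, 4 were higher and 1 lower in GFP- CD25+ cells by 2-fold or more, and 3 were under 2-fold (median 0.75). Dntt, the terminal transferase, had 8.37 there, against 5.32 in GFP- CD25- cells, and Cd24a had 10.49, against 9.0. Rag1 was above the floor in GFP- CD25+ cells alone, at 5.22, and Arpp21 had 6.45, against 4.02. Ccr9, a chemokine receptor of thymocytes, was lower, with 10.85 in GFP- CD25+ and 12.94 in GFP- CD25- cells. The immature thymocyte list had 10 of 11 measured genes above the floor on any array. Its summed level was 12.52 log2 in GFP- CD25+ and 13.38 in GFP- CD25- cells, where Ccr9 made up most of it. On the GFP+ arrays the level was 11.26 in Foxp3-null and 10.74 in Foxp3-fusion cells. The part of these markers in the cell cycle differences was not tested.

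The remaining pairs used the GFP- CD25+ array as reference. In Foxp3-null over GFP- CD25+ cells the replication median was 0.32 (5 of 21 higher and 2 lower) and the mitotic median 0.68 (1 of 15 higher), where 8.09% of 8990 genes were higher and 6.93% lower. The replication genes lower in Foxp3-null cells were Mcm2 and Uhrf1. As deposited, 6.05% of genes were higher and 7.72% lower, and the medians were 0.29 for replication and 0.59 for mitotic genes. In Foxp3-fusion over GFP- CD25+ cells the replication median was -0.51 (3 of 19 higher and 5 lower) and the mitotic median -0.33 (1 of 16 higher and 1 lower), where 11.2% of 8999 genes were higher and 7.78% lower. Mcm2, Fen1, Prim1, Uhrf1 and Rrm2 were the replication genes lower in Foxp3-fusion cells, and Mcm3, Pcna and Rrm1 those that were higher. As deposited, only Prim1 and Uhrf1 of these 5 stayed 2-fold lower, the 3 higher genes stayed so, and the replication median was -0.09 and the mitotic median -0.04, where 20.0% of genes were higher and 3.47% lower.

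Several members have more than 1 probe set, and these read different stretches of the transcript. Of the 38 members above the floor on all 4 arrays, 13 were read from a probe set specific to the transcript by design, and the others from sets whose probes can match further transcripts. For 19 members another probe set was also above the floor on all 4 arrays. In Foxp3-null over GFP- CD25- cells the other set had the same direction in 11 of 19. Of the 12 members at least 2-fold apart on the set used, 8 kept their direction on the other set and 4 were 2-fold apart on it too. Those 4 were replication genes: Mcm3 (log2 differences of 1.39 on the set used and 1.69 on the other), Mcm6 (1.17 and 2.46), Prim1 (1.08 and 1.90) and Rrm2 (1.04 and 2.48). Rfc4 gave 0.90 and 1.89. On its other set Mcm6 had 7.63 in Foxp3-null and 7.64 in Foxp3-fusion cells, against 5.76 in GFP- CD25+ and 5.18 in GFP- CD25- cells, with both GFP+ arrays again high. Rrm2 on its other set had 7.29 in Foxp3-null, 5.16 in Foxp3-fusion, 4.75 in GFP- CD25+ and 4.81 in GFP- CD25- cells, so the null array alone was high.

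For other members the probe sets gave unlike sizes. The direction was the same on both sets in 4 of 6 mitotic and 6 of 10 replication members for Foxp3-null over GFP- CD25- cells, and in 5 of 6 and 6 of 10 in Foxp3-null over Foxp3-fusion cells. Cdca8 gave log2 differences of 1.80 on the set used and 0.91 on the other for Foxp3-null over GFP- CD25- cells, and 1.33 and 1.40 for Foxp3-null over Foxp3-fusion cells. The other sets compared here were above the floor on all 4 arrays. Those of Top2a (0.15), Ccne1 (0.09), Tpx2 (0.14), Plk4 (-0.13), Mcm5 (-0.14) and Rrm1 (-0.12) showed almost no difference over GFP- CD25- cells. The other sets of Mcm5, Rrm1, Plk4 and Tpx2 read between 3.94 and 4.54 log2 on every array, next to the floor, whereas those of Top2a and Ccne1 read between 4.81 and 5.66. Over the 6 mitotic members with another set, the median was 1.46 on the sets used and 0.02 on the others, and over the 10 replication members it was 1.06 and 1.11. Ccnd3 turned its sign, from -1.12 on the set used to 0.57 on the other, and so did Mcm4, from -0.73 to 0.53. Ccnd2 gave 0.29 on the set used and -1.34 on the next one, so no direction is given for cyclin D2. In GFP- CD25+ over GFP- CD25- cells, Mcm2 was 1.03 on the set used and -0.61 on the other.

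**Figure D4:**
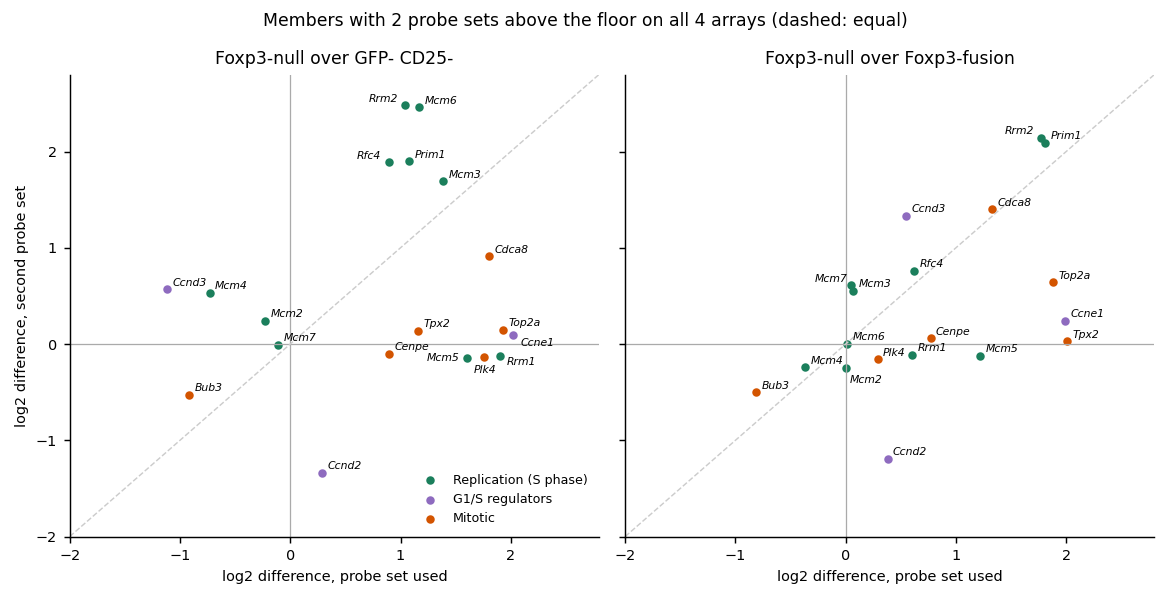
Log2 difference on the probe set used (x axis) and on the other probe set with the highest mean (y axis) for the 19 members with 2 sets above the floor on all 4 arrays, for Foxp3-null over GFP- CD25- (left) and over Foxp3-fusion cells (right). Points on the dashed line have equal differences; Rrm2, Prim1, Mcm6, Mcm3 and Rfc4 lie above it on the left, and Top2a, Ccne1, Tpx2, Plk4, Rrm1 and Mcm5 lie near 0 on the y axis.

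Other genes of the same machinery, taken from lists of 4 kinds, were set beside the members. Of 38 further replication genes, 36 were on the array, and 6 of 30 were higher by 2-fold or more in Foxp3-null over GFP- CD25- cells, with none lower and a median log2 difference of 0.36, where 10.2% of all genes were higher. As deposited, 1 of 30 was higher, against 5.52% of all genes, and the median was 0.12. Slbp, which binds the ends of histone mRNAs, was 2.57-fold, Rfc2, the clamp loader subunit, 2.36-fold, Gmnn (Geminin), the licensing inhibitor, 2.18-fold, and Tipin, a fork protection factor, 2.18-fold higher. Slbp was also 4.45-fold higher in Foxp3-fusion over GFP- CD25- cells, with 6.73 in Foxp3-null, 7.53 in Foxp3-fusion, 5.86 in GFP- CD25+ and 5.37 in GFP- CD25- cells. It was the only one of 32 to reach 2-fold in that comparison (median -0.06), where 9.52% of all genes were higher. In GFP- CD25+ over GFP- CD25- cells 2 of 30 did, Chek1, the replication checkpoint kinase (3.23-fold), and Pold1, the polymerase delta catalytic subunit (2.24-fold). The median was 0.51, and 3.86% of all genes were higher. In Foxp3-null over Foxp3-fusion cells 5 of 32 were higher (median 0.39), Rfc2 by 3.51-fold and Pold1 by 2.95-fold, against 9.44% of all genes. As deposited, however, 1 was higher and 2 lower (median -0.15), against 4.66% and 18.6% of all genes.

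Of 52 further mitotic genes, 5 of 30 were higher and 1 lower by 2-fold or more in Foxp3-null over GFP- CD25- cells (median 0.41). Of all genes 10.2% were higher and 7.11% lower. As deposited 2 of these mitotic genes were higher and 1 lower (median 0.16), against 5.52% and 10.8% of all genes. Cdca5 (Sororin), which holds sister chromatids together, was 4.35-fold higher, with 6.11 in Foxp3-null, 4.49 in Foxp3-fusion, 4.98 in GFP- CD25+ and 3.99 in GFP- CD25- cells. Hmmr, a spindle protein, was 2.77-fold and Spc25, a kinetochore subunit, 2.36-fold higher, while Ect2, which places the cleavage furrow, was 2.33-fold lower. Smc4, a condensin subunit, was higher on both GFP+ arrays, with 12.77 in Foxp3-null and 12.95 in Foxp3-fusion cells, against 12.04 in GFP- CD25+ and 11.57 in GFP- CD25- cells. In Foxp3-fusion over GFP- CD25- cells 1 of 31 was higher and 4 lower (median -0.09), against 9.52% and 4.96% of all genes. The microtubule regulator Stmn1 had 8.47 in Foxp3-fusion cells, against 10.70 in Foxp3-null, 10.70 in GFP- CD25+ and 10.50 in GFP- CD25- cells, and was 4.08-fold lower in Foxp3-fusion over GFP- CD25- cells. Spc25 (2.08-fold) and the Cdk subunit Cks1b (2.55-fold) were lower there too. In Foxp3-null over Foxp3-fusion cells 6 of 33 were higher and 1 lower (median 0.37), led by Spc25 at 4.91-fold and Stmn1 at 4.71-fold. Of all genes 9.44% were higher and 9.12% lower there. As deposited 4 of these mitotic genes were higher and 4 lower, against 4.66% and 18.6% of all genes. In GFP- CD25+ over GFP- CD25- cells 2 of 28 were higher and none lower (median 0.21), against 3.86% and 4.38% of all genes.

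Some genes that hold back the cell cycle were also high in GFP+ cells after quantile normalization. Of 17 listed, 3 of 12 were higher by 2-fold or more and none lower on each GFP+ array, over GFP- CD25- cells. The median was 0.27 for Foxp3-null and 0.48 for Foxp3-fusion cells, where 10.2% and 9.52% of all genes were higher. As deposited, 1 of 12 was higher in Foxp3-null cells, where the median turned to -0.07, against 5.52% of all genes. In Foxp3-fusion cells 4 of 12 were higher on that scale (median 0.72), against 14.1%. After quantile normalization the 3 higher genes were Rbl2 (p130), the retinoblastoma relative of resting cells, the antiproliferative gene Tob1, and Foxo1, a transcription factor of quiescence. Rbl2 had 6.32 in Foxp3-null and 6.13 in Foxp3-fusion cells, against 4.35 in GFP- CD25+ and 4.36 in GFP- CD25- cells. Tob1 had 7.13 in Foxp3-null and 7.44 in Foxp3-fusion cells, against 5.38 in GFP- CD25+ and 5.78 in GFP- CD25- cells. Foxo1 was 2.10-fold higher on each GFP+ array, but its log2 difference as deposited was 0.73 for Foxp3-null and 1.29 for Foxp3-fusion cells. Rbl2 kept 1.75 and 2.08 on that scale. Cdkn1b (p27), which restrains cyclin E with Cdk2, was 2.53-fold lower in Foxp3-null over Foxp3-fusion cells, with 8.74 in Foxp3-null, 10.07 in Foxp3-fusion, 9.21 in GFP- CD25+ and 9.14 in GFP- CD25- cells. In that comparison 1 of 12 was higher, Foxo3, against 9.44% of all genes, and the median was -0.14. In GFP- CD25+ over GFP- CD25- cells the Cdk inhibitor Cdkn2d (3.06-fold) and the retinoblastoma relative Rbl1 (2.63-fold) were lower and none was higher. The median was -0.14, and of all genes 4.38% were lower and 3.86% higher.

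Of 17 further G1/S genes, 13 had a difference in Foxp3-null over GFP- CD25- cells (median 0.39, and 0.01 as deposited). Of these 1 was higher and 1 lower by 2-fold or more, against 10.2% and 7.11% of all genes. The higher was E2f5, an E2F repressor (2.53-fold), and the lower Skp2 (2.69-fold), the ubiquitin ligase subunit that marks p27 for destruction. Skp2 had 5.48 in Foxp3-null, 6.61 in Foxp3-fusion, 7.96 in GFP- CD25+ and 6.91 in GFP- CD25- cells. Myc, the growth regulator, was highest in Foxp3-fusion cells, with 7.07 in Foxp3-null, 8.70 in Foxp3-fusion, 7.62 in GFP- CD25+ and 7.32 in GFP- CD25- cells, and was 2.60-fold higher in Foxp3-fusion over GFP- CD25- cells. In Foxp3-fusion over GFP- CD25- cells 2 of 14 were higher and 1 lower (median 0.02), against 9.52% and 4.96% of all genes. In Foxp3-null over Foxp3-fusion cells 2 of 14 were higher and 2 lower (median 0.22), against 9.44% and 9.12% of all genes. In GFP- CD25+ over GFP- CD25- cells 2 of 13 were higher, E2f3, an activating E2F (2.68-fold), and Skp2 (2.07-fold), against 3.86% of all genes. The median was 0.51.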

How the data were processed

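RNA of 4 sorted thymocyte populations, 1 array each, was measured. Cells, per the labels' protocols, were sorted on beads and by flow cytometry, and column-extracted RNA was amplified in 2 rounds to biotin-labelled cRNA. The authors deposited 4 columns of signals by probe set, whose scale was taken as log2 from its range; the authors' background correction, summarisation and normalization are not given in the sources used here. The groups follow the sample titles.

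Deposited 90th percentiles ran from 7.54 to 8.17, a spread above the limit of 0.2, so the arrays were quantile normalized. The array has 45101 probe sets: 64 controls were left out, 34945 were annotated with 1 gene, 932 with several and 9211 with none listed. Symbols were checked against the RefSeq table of GRCm38.p6 (34741 matched, 0 changed). The floor was the highest array's 90th percentile over 85 probe sets of genes silent in this tissue, 3.80 log2 (3.91 as deposited). Where 1 of the arrays was at the floor the difference is a bound, and where both were, none is given. Members were counted at 2-fold beside all genes above the floor; with 1 array per group no p-value was computed, and the number of arrays limits the precision. Alternatives were the deposited scale, median centring, other floors, other fold thresholds, the median over probe sets, and only transcript-specific probe sets; the comparison with other probe sets was added after values were seen. All members may be named, and outside them up to 4 genes per pathway list, comparison and direction that were 2-fold apart, and markers above the floor; genes named as below the floor were chosen after their values were seen. The members and lists were chosen with earlier results of these data known. Python 3.11.15, numpy 2.4.6 and pandas 2.3.3 were used, and the script was tested on simulated data.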

Additional observations from a re-analysis of the deposited data

How the results depend on the processing

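The replication and mitotic medians moved by less than 1.5 times in fold under the scalings, floors and probe set choices tried, with 1 exception. The replication median of Foxp3-fusion over GFP- CD25- cells was 0.49 without probe sets that can match several transcripts. Though within 1.5 times, the mitotic median of Foxp3-null over GFP- CD25- cells fell from 0.74 to 0.24 (9 genes) without those probe sets. It was 0.24 with no floor and 0.34 by the median over probe sets. The replication median of that comparison was 0.93, and 0.90, 0.83 and 0.60 in these settings. A floor 1 log2 unit higher moved no count by over 1.5 times. The other counts that moved are given as Foxp3-null over GFP- CD25-, Foxp3-fusion over GFP- CD25-, GFP- CD25+ over GFP- CD25-, and Foxp3-null over Foxp3-fusion, where each moved. At 1.5-fold, 15 replication genes were higher in the first and 8 in the third, 1 lower in the first and 2 in the second; 3 mitotic genes were higher in the second and 4 in the third, and 1, 2, 1 and 2 lower in the 4. At 3-fold, 3, 0, 0 and 3 replication genes were higher in the 4, and 0, 0 and 2 mitotic genes in the last 3. As deposited, 1 replication gene was higher in the third and 4 in the last, and 1 lower in the first; 0 mitotic genes were higher in the third and 2 in the last, and 1 lower in the first and the last. Centring left 1 mitotic gene lower in the second. With no floor 2 mitotic genes were higher in the second and 1 lower in the last. By the median over probe sets, 3, 0 and 3 replication genes were higher in the last 3, and 2 and 0 mitotic genes in the first 2. Without probe sets that can match several transcripts, 1 replication gene was higher in the third and 3 in the last, with 1 lower; 2, 0 and 2 mitotic genes were higher in the first, the second and the last. These counts of 0 come from no test. Apart from the construction of each alternative, the cause was not tested.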
